A study of Homo sapiens with 4 samples.

Results

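The genes described here are 10 subunits of the BAF (SWI/SNF) chromatin remodelling complex that are exchanged, or exist in alternative forms, when neural progenitors become neurons: ACTL6A and ACTL6B, PHF10, DPF1, DPF2 and DPF3, SS18 and SS18L1, and the ATPases SMARCA4 and SMARCA2. They were chosen by name, and every probe set assigned to 1 of them alone was used, which gave 24 probe sets for the 10 genes, of 35184 probe sets for 19798 genes in all. The values are array intensities of HCT-116 dicer- cells, an epithelial line from a human colon cancer in which Dicer, the enzyme that matures microRNAs, is altered, and every group carries that alteration. Of the 4 arrays 2 were mock transfections, 1 came from cells that received miR-124 as a duplex whose guide strand was intact (G/P, 10 nM), and 1 from cells that received it as a duplex whose guide strand was segmented (10 nM). All cells were taken at 24 h. None of the 4 arrays came from cells given an unrelated duplex. A response to miR-124 and a response to receiving any duplex therefore cannot be told apart here. The series asked whether activity that depends on the microRNA seed persists when the guide strand is segmented.

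BAF complexes use the energy of ATP to move nucleosomes. A complex holds 1 ATPase and an actin-related protein, and, depending on its form, a PHD finger protein of the PHF10 and DPF group and a member of the SS18 pair, and the choice of variant differs between cell types. In the developing nervous system, progenitors carry ACTL6A, PHF10 or DPF2, and SS18, while postmitotic neurons carry ACTL6B, DPF1 or DPF3, and SS18L1. miR-124, a microRNA abundant in neurons, is known from work on neurons as a repressor of ACTL6A. HCT-116 cells are epithelial, so what the arrays show is the response of these genes outside the lineage in which the exchange takes place.

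The colon epithelium marker EPCAM stood at log2 levels from 13.01 to 13.06 on the 4 arrays, and KRT19 from 11.08 to 11.24, while the intestinal markers VIL1, CDX1, CEACAM5 and LGALS4 did not exceed 3.69. Of 9 measured colon epithelium markers, CDH1 (0.79) and TSPAN8 (1.99) rose past limma's test with the intact duplex. With the segmented duplex TSPAN8 (1.49) did, and 0 fell past the test with either. Among all genes 24.9% passed with the intact and 5.99% with the segmented duplex. TSPAN8 was low in mock cells (3.05 and 3.31). KRT18 went the other way without passing, from 8.86 and 8.96 in mock cells to 8.39 with the intact and 8.42 with the segmented duplex. An unadjusted limma p lay below the threshold for 3 and 4 of the 9, beside 7822 and 5416 of all 19798 genes. Among neuron markers, SYT1 (10.08 to 10.61) and TUBB3 (10.41 to 10.80) were high on all arrays, and STMN2, NEFL, SYN1 and GAP43 did not exceed 4.61. Of the 8 neuron markers 1 rose and 0 fell with the intact duplex, where 24.9% of all genes passed. This was SNAP25, by 0.62 (not past the test in 3 of 7 alternatives), and the median change over the list was -0.13. With the segmented duplex 0 of the 8 passed limma's test, where 5.99% of all genes did. There 2 had an unadjusted p below the threshold, beside 5416 of all 19798 genes. Of 11 measured blood, stroma and glia markers COL1A1 rose by 1.20 and GFAP fell by 0.70 with the intact duplex. GFAP fell from a low level and not past the test in 2 of 6 alternatives. Again, 24.9% of all genes passed there. With the segmented duplex 0 of the 11 passed, where 5.99% of all genes did. There 1 had an unadjusted p below the threshold, beside 5416 of all 19798 genes. The myelin gene MBP was high on every array (11.06 to 11.29). The part of these markers in the results below was not tested. DICER1 stood at 11.21 and 11.28 in mock cells, 11.13 with the intact and 10.80 with the segmented duplex. All 5 of its probe sets were lower with both duplexes. Their mean gave -0.42 with the intact and -0.86 with the segmented duplex. Neither change passed limma's test, but that with the segmented duplex passed in 4 of 7 alternatives. Cells with unaltered Dicer were not analysed here. No detection call was used, so whether a low value lies above background was not tested. Each duplex has 1 array, so limma's test assumes that it varies like the 2 mock arrays, which the labels do not say came from separate cultures; the p-values then measure a spread that may be technical.

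With the intact duplex, PHF10 and SS18 fell and DPF3 and SMARCA2 rose, while ACTL6A stood at a log2 change of -0.02 and did not pass. That is 4 of the 10 genes past limma's test at a Benjamini-Hochberg adjusted p of 0.05, 2 lower and 2 higher. The call of SS18 rests on its brightest probe set. Its other 3 probe sets were higher than the mock mean, and the mean of all 4 gave -0.04. Among all genes 24.9% passed, 10.4% lower and 14.5% higher (2064 and 2873 genes; 2667 and 2625 with arrays centred on their medians), so the count of 4 in 10 is no result about these genes as a group. The median log2 change of the 10 genes was -0.09, beside 0.02 for all genes. With the segmented duplex 0 of the 10 genes passed limma's test, where 5.99% of all genes did. An unadjusted limma p lay below the threshold for 3 of the 10, beside 5416 of all 19798 genes. The median change of the 10 genes was -0.08, beside 0.01 for all genes. By size alone, the intact array differed at least 1.5-fold from each mock array for 3 of the 10 (23.2% of all genes), the segmented array for 2 (12.3%), and the mock arrays from each other for 0 (3.23%). Both comparisons use the same mock arrays. In these bulk samples fewer cells that express a gene and less of its RNA per cell cannot be told apart.

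**Figure D1:**
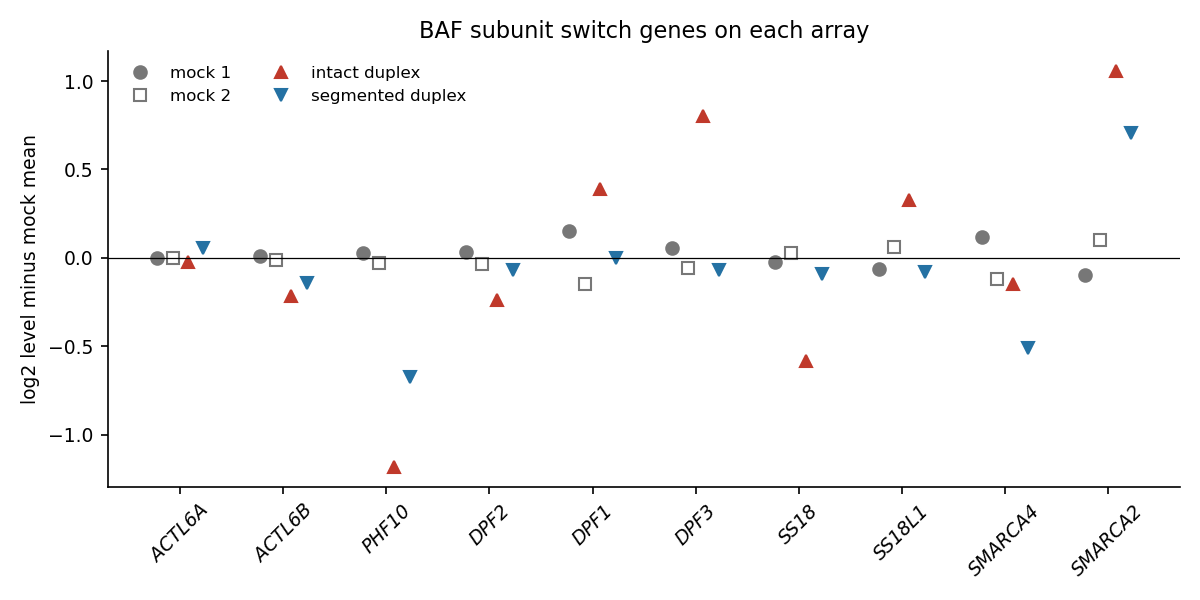
Log2 level of each of the 10 BAF genes on each of the 4 arrays, with the mean of the mock arrays subtracted (vertical axis, log2 units; circles and squares, mock arrays; upward triangles, intact duplex; downward triangles, segmented duplex). PHF10 lies 1.18 and 0.67 under the mock mean with the intact and segmented duplex, SMARCA2 lies 1.06 and 0.71 over it, and all 4 points of ACTL6A lie within 0.06 of it.

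ACTL6A, the actin-related subunit of dividing cells, had intensities of 1713 and 1708 in mock cells, 1684 with the intact and 1778 with the segmented duplex. On the log2 scale both mock arrays read 10.74, the intact array 10.72 and the segmented array 10.80. The change of -0.02 with the intact duplex (limma adjusted p = 0.91) had a 95% interval from -0.36 to 0.31. The change of 0.06 with the segmented duplex (limma adjusted p = 0.81) had an interval from -0.28 to 0.39. A fall as large as that of PHF10, described below, lies outside both intervals, which rest on the spread of the mock pair and on the variances shared across genes. ACTL6A had 1 probe set, annotated to a RefSeq messenger RNA, so no other probe set bears on this value.

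The genes above the median level whose 4 values lay closest to those of ACTL6A, each centred on its mock mean, were RBMX2, IFT25, TOMM5, NOD1 and ERG28, at Euclidean distances from 0.0053 to 0.020 log2 units over the 4 arrays. All 6 genes were nearly flat, and 323 of 9898 genes above the median level lay within 0.1 of ACTL6A.

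ACTL6B, the form of neurons, had log2 levels of 6.12 and 6.10 in mock cells, 5.90 with the intact and 5.97 with the segmented duplex, from 1 probe set. Both treated arrays were below both mock arrays, by 0.21 and 0.14 from the mean, and neither change passed (limma adjusted p = 0.277 and 0.509). Its values lay under the median log2 level of all genes, 6.76, on every array. The actin-related subunits thus gave no called change in either direction with either duplex.

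PHF10 is a subunit of progenitor complexes that carries PHD fingers, protein folds that read histone tails. Its brighter probe set had intensities of 1049 and 1007 in mock cells, 453 with the intact and 644 with the segmented duplex. In log2 units these are 10.04, 9.98, 8.82 and 9.33. Both treated arrays lay below both mock arrays, and the intact duplex gave the lower value.

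PHF10 fell by 1.18 with the intact duplex, a 2.27-fold difference (limma SE 0.12, adjusted p = 0.0119), and 3.60% of genes had as low or a lower change. With the segmented duplex the change was -0.67, a 1.60-fold difference (limma SE 0.12, adjusted p = 0.0643), which missed the threshold; it passed with arrays centred on their medians (limma adjusted p = 0.0437), without the dimmest 40% of genes (0.00324), with the trended and robust prior (0.000126) and with 16 intensity units added (0.00793). The second probe set of PHF10 stood at 8.67 and 8.82 in mock cells, 7.75 with the intact and 8.53 with the segmented duplex. Tested by itself among all probe sets, of which 25.5% passed with the intact and 6.92% with the segmented duplex, it fell by 0.99 with the intact duplex (limma adjusted p = 0.0164), and its change with the segmented duplex was -0.22 (limma adjusted p = 0.397). The 2 probe sets therefore went the same way with both duplexes, but differed in how far the segmented duplex moved them, and the mean of the 2 gave -0.45 there (limma adjusted p = 0.107).

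The 250 bases before the annotated start of PHF10 are shown because this is the member with the largest fall, and because their composition is extreme among human promoters. In RefSeq's GRCh38.p14 they lie at chr6:169724501-169724750 on the minus strand, and are printed 5′ to 3′ along the gene with each GC box (GGGCGG on either strand, overlapping matches included) in capitals.
PHF10: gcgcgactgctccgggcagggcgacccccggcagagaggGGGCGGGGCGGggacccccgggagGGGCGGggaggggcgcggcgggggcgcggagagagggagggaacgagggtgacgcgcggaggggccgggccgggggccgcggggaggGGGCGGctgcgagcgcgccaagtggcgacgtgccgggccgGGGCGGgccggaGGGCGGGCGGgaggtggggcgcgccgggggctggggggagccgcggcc
This window was 86.4% G or C, as high as or higher than 99.8% of 35114 human windows of the same length, and held 39 CpG dinucleotides and 7 matches to the GC box. At least 1 such match was found in 42.6% of all windows.

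DPF2, the form of the same subunit found in most tissues, had log2 levels of 8.55 and 8.49 in mock cells, 8.28 with the intact and 8.45 with the segmented duplex, from 1 probe set. Both treated values lay below both mock values. The changes of -0.24 and -0.07 did not pass (limma adjusted p = 0.246 and 0.769).

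DPF1, a form found in neurons, stood at 5.17 and 4.87 in mock cells, 5.41 with the intact and 5.02 with the segmented duplex. Its mock arrays differed by 0.30, the most of the 10 genes, and neither change passed (0.39 and -0.00077; limma adjusted p = 0.201 and 0.999). Its second probe set stood at 4.30 and 3.92 in mock cells, 4.05 with the intact and 3.59 with the segmented duplex, and so went the other way with the intact duplex.

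DPF3, expressed in heart, muscle and neurons, rose with the intact duplex. The probe set that stood for the gene had intensities of 59.8 and 55.4 in mock cells, 100.3 with the intact and 54.8 with the segmented duplex. In log2 units these are 5.90, 5.79, 6.65 and 5.78, so that the intact array lay above all others and the segmented array next to the mock arrays. The rise of 0.80 was 1.74-fold (limma SE 0.13, adjusted p = 0.0244). The change with the segmented duplex was -0.07 (limma adjusted p = 0.774). All 3 probe sets of DPF3 were higher with the intact duplex, by 0.80, 1.07 and 0.80. The probe set that differed by 1.07 stood at 5.47 and 4.66 in mock cells, 6.13 with the intact and 5.30 with the segmented duplex. Its mock arrays lay far apart, and of the 3 it alone did not pass limma's test by itself with the intact duplex. The third probe set stood at 3.24 and 2.92 in mock cells, 3.88 with the intact and 3.64 with the segmented duplex, and thus lay above both mock arrays with the segmented duplex too. All 3 probe sets lay under the median level of genes on every array.

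SS18 is the subunit of progenitor complexes best known as the fusion partner in synovial sarcoma, and its probe sets disagreed. The brightest, annotated to the RefSeq messenger RNA, stood at 11.67 and 11.72 in mock cells, 11.11 with the intact and 11.60 with the segmented duplex. It fell by 0.59 with the intact duplex, a 1.5-fold difference (limma SE 0.12, adjusted p = 0.0416), and its change with the segmented duplex was -0.09 (limma adjusted p = 0.681).

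The other 3 probe sets of SS18, annotated to other cDNA or EST records, were higher than the mock mean with both duplexes: by 0.20, 0.04 and 0.21 with the intact duplex and by 0.45, 0.46 and 0.55 with the segmented duplex. For the second of the 4, the values were 10.07 and 10.09 in mock cells, 10.28 with the intact and 10.54 with the segmented duplex. None of these 3 passed by itself (limma adjusted p from 0.307 to 0.896 with the intact and from 0.0852 to 0.173 with the segmented duplex). With the mean of all 4 probe sets SS18 stood at -0.04 with the intact duplex (limma adjusted p = 0.854), so the call rests on the brightest probe set. Which parts of the transcript the probe sets cover was not analysed here.

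SS18L1, the calcium-responsive form of neurons also known as CREST, stood at 10.56 and 10.68 in mock cells, 10.95 with the intact and 10.54 with the segmented duplex. The intact array lay above both mock arrays and the segmented array just below them. The changes of 0.33 and -0.08 did not pass (limma adjusted p = 0.162 and 0.748). The first passed with the dimmest 40% of genes left out (limma adjusted p = 0.045) and with the trended and robust prior (0.0107). The second probe set of SS18L1 moved by 0.12 and 0.05.

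**Figure D2:**
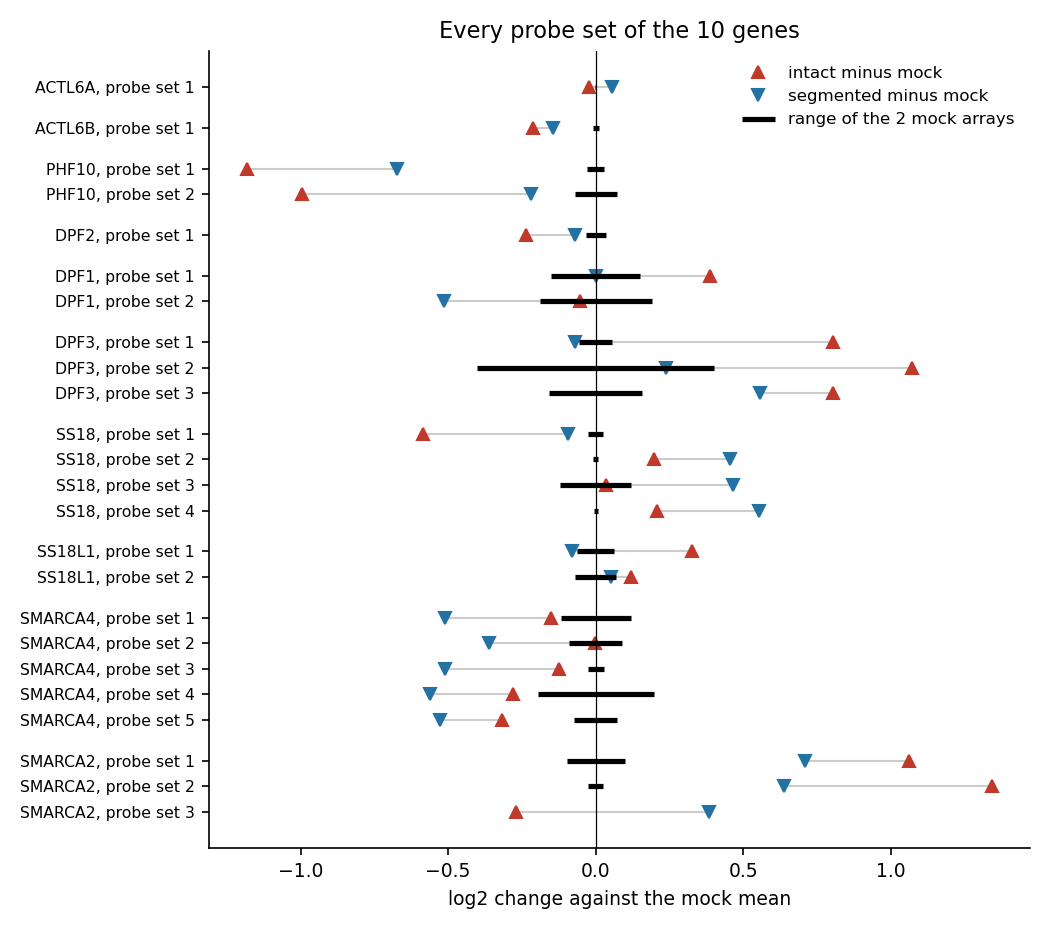
Log2 change of each of the 24 probe sets against the mean of the mock arrays (horizontal axis) with the intact duplex (upward triangles) and the segmented duplex (downward triangles); black bars span the 2 mock arrays, and probe sets of a gene are numbered from the brightest. Both probe sets of PHF10 lie left of the mock range with both duplexes, all 5 of SMARCA4 lie left of it with the segmented duplex, and probe set 1 of SS18 lies at -0.59 with the intact duplex while the other 3 lie between 0.04 and 0.21.

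SMARCA4 (BRG1) and SMARCA2 (BRM) are the alternative ATPases, and their changes with the duplexes had opposite signs. SMARCA2 had intensities of 680 and 780 in mock cells, 1518 with the intact and 1191 with the segmented duplex. In log2 units these are 9.41, 9.61, 10.57 and 10.22, with both treated arrays above both mock arrays.

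SMARCA2 rose by 1.06 with the intact duplex, a 2.08-fold difference (limma SE 0.15, adjusted p = 0.0187). With the segmented duplex the change was 0.71, or 1.63-fold (limma SE 0.15, adjusted p = 0.0786), which missed the threshold, and passed with the dimmest 40% of genes left out (limma adjusted p = 0.00461), with the trended and robust prior (7.4e-05) and with 16 intensity units added (0.0131). Its second probe set stood at 8.11 and 8.06 in mock cells, 9.43 with the intact and 8.73 with the segmented duplex. By itself it rose by 1.34 with the intact duplex (limma adjusted p = 0.00847), and stood at 0.64 with the segmented duplex (limma adjusted p = 0.0684). The third probe set, at 4.40 on both mock arrays, 4.13 with the intact and 4.79 with the segmented duplex, was low on every array and went the other way with the intact duplex.

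SMARCA2 has 4 windows in the promoter table, each before a separate annotated start, and they are unlike in composition. The first, at chr9:2015097-2015346 on the plus strand of GRCh38.p14, is shown as the start of the longest extent of the gene, with GC boxes in capitals as before.
SMARCA2: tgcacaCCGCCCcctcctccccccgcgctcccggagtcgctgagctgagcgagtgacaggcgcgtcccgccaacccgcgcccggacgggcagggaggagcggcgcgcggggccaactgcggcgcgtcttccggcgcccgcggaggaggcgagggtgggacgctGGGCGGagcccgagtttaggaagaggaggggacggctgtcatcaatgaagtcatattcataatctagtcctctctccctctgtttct
It was 68.8% G or C with 29 CpG dinucleotides and 2 matches to the GC box. The other windows, before starts further along the gene, were 40%, 46.0% and 42.0% G or C with 0, 1 and 8 CpG dinucleotides, and held no GC box. Which start the transcripts on these arrays used was not analysed here.

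SMARCA4 stood at 10.20 and 9.96 in mock cells, 9.93 with the intact and 9.57 with the segmented duplex. The mock arrays differed by 0.24, and the intact array lay just under the lower of them. The change was -0.15 with the intact duplex (limma adjusted p = 0.543). With the segmented duplex it was -0.51, or 1.43-fold lower (limma adjusted p = 0.147), which passed only with the dimmest 40% of genes left out (limma adjusted p = 0.0206), the trended and robust prior (0.00219) or 16 intensity units added (0.0436). All 5 probe sets of SMARCA4 were lower than the mock mean with both duplexes, and each was lower with the segmented than with the intact duplex. With the segmented duplex they lay between -0.56 and -0.36, and none passed by itself (limma adjusted p from 0.0994 to 0.22). The probe sets measure the same RNA of the same arrays and are no replicates.

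Within each array, ACTL6A, PHF10, DPF2 and SS18 were set against the forms of neurons in 6 pairs. In 5 of 6 the ratio was lower with the intact duplex than in mock cells. Those of PHF10 and DPF2 all lie in the PHD finger group, and DPF2 is the form found in most tissues. The other is SS18 to SS18L1, while the actin-related pair went the other way. SMARCA4 was lower relative to SMARCA2. The pairs share genes, and how often other gene pairs shift this way was not tested. The log2 ratio of PHF10 to DPF3, relative to its mock mean, was -0.03 and 0.03 in mock cells, -1.98 with the intact and -0.60 with the segmented duplex. That of PHF10 to DPF1 was -0.12 and 0.12 on the mock arrays, -1.57 and -0.67. The ratio of DPF2 to DPF3 was -1.04 with the intact and 0.0020 with the segmented duplex, and that of DPF2 to DPF1 was -0.63 and -0.07. All of these ratios include the probe sets of DPF1 or DPF3, which lie under the median level.

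The ratio of SS18 to SS18L1 was 0.04 and -0.04 in mock cells, -0.91 with the intact and -0.01 with the segmented duplex, and the first of these rests on the brightest SS18 probe set. The ratio of SMARCA4 to SMARCA2 was 0.22 and -0.22 in mock cells, -1.21 with the intact and -1.22 with the segmented duplex. Both duplexes thus stood at nearly the same ratio, with the intact duplex mainly through a higher SMARCA2 and with the segmented duplex through a higher value of SMARCA2 and a lower one of SMARCA4. The ratio of ACTL6A to ACTL6B went the other way, at 0.19 and 0.20. A ratio shows unequal change and says nothing of the amounts of the 2 proteins, and no test was made of the ratios.

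**Figure D3:**
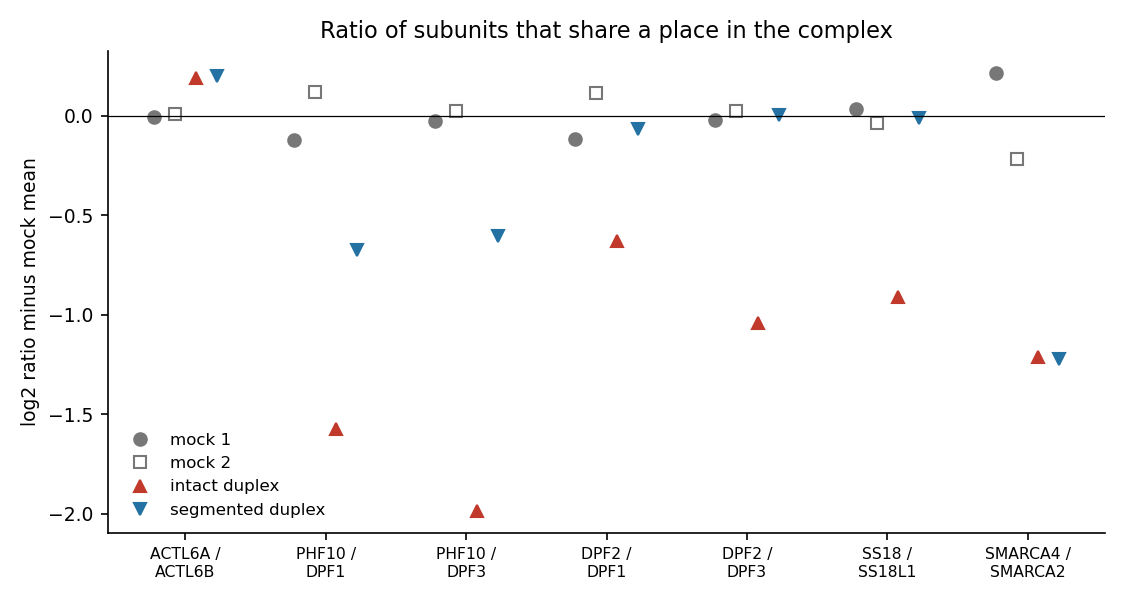
Log2 ratio of 2 subunits that can fill the same place in the complex, on each array, minus the mean of the mock arrays (vertical axis, log2 units; symbols as for the plot of levels by array). With the intact duplex 6 of the 7 ratios lie between -1.98 and -0.63, and the ratio of SMARCA4 to SMARCA2 lies at -1.21 and -1.22 with the 2 duplexes.

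Between the duplexes themselves, 0 of the 10 genes and 0% of all genes passed limma's test. An unadjusted p lay below the threshold for 3 of the 10, beside 3273 of all 19798 genes. DPF3 was lower with the segmented than with the intact duplex by 0.87 (limma adjusted p = 0.184), with a 95% interval of the difference from -1.29 to -0.45. PHF10 was higher with the segmented duplex by 0.51 (interval 0.11 to 0.91, limma adjusted p = 0.248) and SS18 by 0.49 (0.10 to 0.89, adjusted p = 0.253). For SMARCA2 the difference was -0.35 (interval -0.83 to 0.13) and for SMARCA4 -0.36 (-0.88 to 0.15). DPF3 passed without the dimmest 40% of genes (limma adjusted p = 0.0082), with the trended and robust prior (0.017) and with 16 intensity units added (0.0317), and PHF10 and SS18 passed under the first pair of these (0.0389 and 0.0132 for PHF10, 0.0416 and 0.00125 for SS18). SS18L1 (-0.41) passed with the trended and robust prior alone (limma adjusted p = 0.0211). The intervals given here are those of single genes, not adjusted for the number of genes, and each compares 1 array with 1 other. A p that misses the threshold here does not show that the duplexes acted alike.

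Among other subunits of BAF complexes, SMARCC1 and BCL11A stood further from mock than any of the 10 genes. Of 20 measured, 2 fell and 5 rose with the intact duplex, where 24.9% of all genes passed, with a median change of 0.20. SMARCC1, a core scaffold subunit around which the complex assembles, stood at 11.80 and 11.81 in mock cells, 9.48 with the intact and 10.51 with the segmented duplex. It fell by 2.33 with the intact duplex (limma SE 0.12, adjusted p = 0.00822) and by 1.29 with the segmented duplex (limma SE 0.12, adjusted p = 0.0354), on all 3 of its probe sets. Its paralogue SMARCC2 stood at 0.08 and 0.20 and did not pass.

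BCL11A, a zinc finger subunit of lymphoid and neural cells, stood at 4.93 and 4.82 in mock cells, 7.04 with the intact and 6.14 with the segmented duplex. It rose by 2.16 with the intact duplex (limma SE 0.13, adjusted p = 0.00824) and by 1.27 with the segmented duplex (adjusted p = 0.0363), and 3 of its 4 probe sets were higher with each duplex. BCL11B rose by 1.01 with the intact duplex and stood at 0.60 with the segmented duplex. The scaffold variants SMARCD3 and SMARCD1 rose by 0.91 and 0.80 and the DNA-binding subunit gene ARID1A by 0.58 with the intact duplex; ARID1A missed the threshold with arrays centred on their medians (0.49, limma adjusted p = 0.055) and with the mean of its 3 probe sets, of which 1 went the other way (0.34, limma adjusted p = 0.138). ACTB, whose product is both a cytoskeletal protein and a BAF subunit, fell by 1.01 with the intact duplex and stood at -0.59 with the segmented duplex. SMARCC1 and BCL11A were the 2 of the 20 that passed with the segmented duplex, 1 lower and 1 higher, where 5.99% of all genes passed, with a median of 0.25 over the list. That count was 8 without the dimmest 40% of genes, 10 with the trended and robust prior and 8 with 16 intensity units added. Among all genes 4781 of 11879, 5415 of 19798 and 4279 of 19798 passed under these settings, in that order. Whether the list differs from all genes was not tested.

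**Figure D4:**
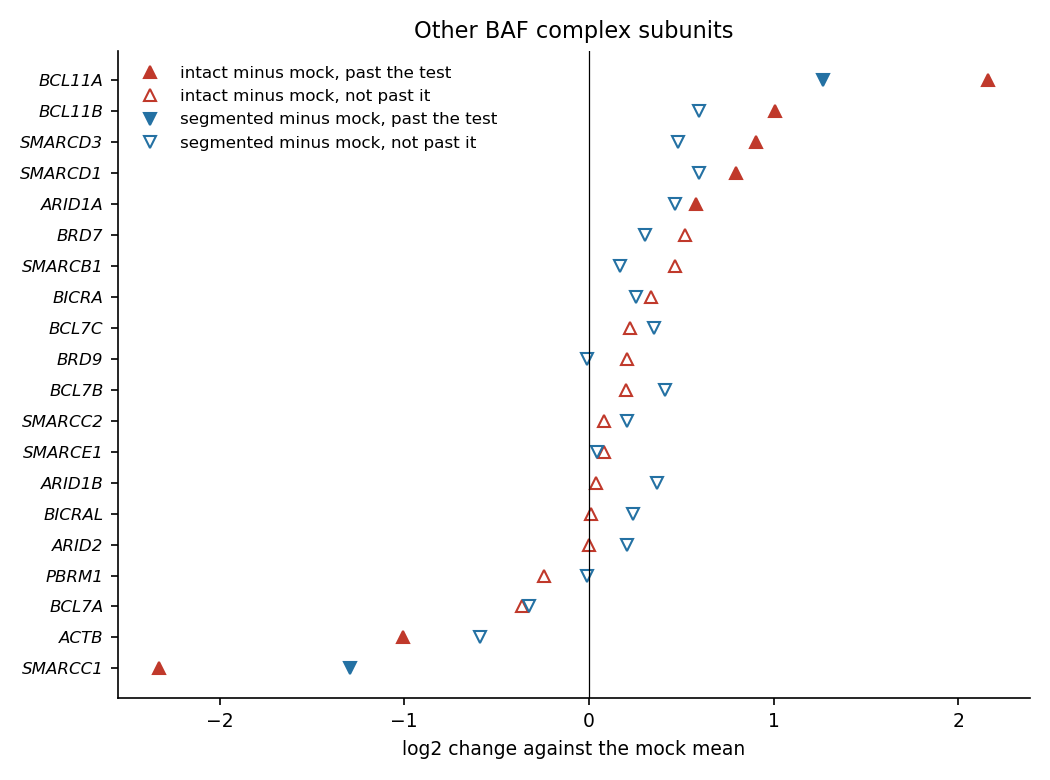
Log2 change against the mock mean (horizontal axis) of 20 other BAF complex subunits with the intact duplex (upward triangles) and the segmented duplex (downward triangles); filled symbols passed limma's test over all genes. SMARCC1 at -2.33 and -1.29 and BCL11A at 2.16 and 1.27 are filled for both duplexes.

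ACTL6A also belongs to the INO80, SRCAP and TIP60 chromatin complexes. Of 23 measured genes of those complexes, 1 fell and 4 rose with the intact duplex, with a median of 0.18. There 24.9% of all genes passed, so that the count is no result about these complexes. With the segmented duplex 0 of the 23 passed limma's test, where 5.99% of all genes did. An unadjusted p lay below the threshold for 8 of them, beside 5416 of all 19798 genes. INO80C fell by 0.72, and MBTD1 (0.72), ACTR5 (0.65), EPC2 (0.58) and YEATS4 (0.57) rose. YEATS4 and EPC2 missed the threshold with arrays centred on their medians (limma adjusted p = 0.0752 and 0.0669), and MBTD1 with the mean of its 2 probe sets (0.0765).

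Of 7 genes known to act upstream of the neuronal exchange or beside miR-124, 5 fell and 1 rose in cells given the intact duplex. In those given the segmented one 3 fell and 1 rose. Among all genes 24.9% passed with the intact and 5.99% with the segmented duplex. The list was written with earlier results on several of its genes known and is no independent evidence of direction. REST, the repressor of neuronal genes, stood at 11.15 and 11.32 in mock cells, 10.96 with the intact and 11.16 with the segmented duplex, and did not pass (limma adjusted p = 0.25 and 0.788); of its 3 probe sets, 2 were higher than mock with the intact duplex. Its partner RCOR1 fell by 0.55 with the intact duplex and stood at -0.64 with the segmented duplex. The phosphatase gene CTDSP2 fell by 1.26 with the intact duplex and stood at -0.63 with the segmented duplex. Its 2 probe sets went opposite ways with the segmented duplex, and their mean gave -0.22 there (limma adjusted p = 0.323). CTDSP1, CTDSPL and PTBP1 were lower and PTBP2 higher past the test with both, and CTDSP1 missed it with the segmented duplex when its 2 probe sets were averaged (limma adjusted p = 0.0896). PTBP1 stood at 12.27 and 12.24 in mock cells, 9.73 with the intact and 11.08 with the segmented duplex, on the same arrays on which ACTL6A stayed within 0.06 of its mock mean.

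The promoters of the members varied widely in their content of G and C, a feature the choice by name did not use. RefSeq's table held 15 windows for 9 of the 10 genes; the entry missing was ACTL6A. The median window was 65.2% G or C with 18 CpG dinucleotides, beside 58.0% and 11 over 35114 windows, and the members' windows ran from 40% to 86.4%, with those of SMARCA2 after the first, the second of SMARCA4 (55.6%) and the first of SS18 (56.4%) under the median of all windows. SMARCA4 (first window, 82.4%), SS18L1 (81.6%) and PHF10 (86.4%) were above 98% of all windows. Of these 3 genes PHF10 alone passed limma's test with the intact duplex. Whether promoter composition bears on the changes was not tested. A CCAAT box (CCAAT on either strand) was found in 6 of the 15 windows, those of ACTL6B, DPF2, DPF1, both of DPF3 and the first of SS18, beside 32.0% of all windows. A GC box was found in 8 of the 15, beside 42.6% of all windows. A TATA box (TATAAA) was found in 1, the second SMARCA2 window (10.7% of all), and 0 held an E-box (CACGTG, 6.35% of all) or the core of a cAMP response element (TGACGT, 7.10%). Several windows belong to 1 gene and are not independent, and a match is a description of letters.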

How the data were processed

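RNA of 4 one-colour arrays was analysed. Per the submitters' processing notes the authors made the deposited intensity values with RMA, of a version not given in the sources used here. They run from 2.51 to 22268, too wide for the log2 scale of RMA output, and were read as linear; log2 was taken with no pseudocount. Quantile normalization removes a change shared by most genes. Of 52377 probe sets, 35184 had 1 gene in the platform annotation, 374 several and 16819 were not listed; 35134 were matched to RefSeq symbols (GRCh38.p14) by Entrez identifier. The brightest probe set stood for a gene. Changes were tested with limma 3.58.1 (R 4.3.3), with a mean per group, 1 residual and 2.89 prior degrees of freedom, and Benjamini-Hochberg adjustment over 19798 genes. Single probe sets were adjusted over 35184. The fit was tested on simulated data. Alternatives were other scalings, filters, priors, probe set rules and a pseudocount. All 10 members were named; of the other lists (BAF subunits, complexes of ACTL6A, regulators of the exchange, and markers), called genes and those with large changes. Members and lists were chosen with earlier results of these data known. The number of arrays limits the precision.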

Additional observations from a re-analysis of the deposited data

How the results depend on the processing

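With the intact duplex, the calls of PHF10, DPF3 and SMARCA2 held in all 7 tested alternatives and that of SS18 in 6. In the test over single probe sets, the call of a gene is that of its brightest probe set. Of the other probe sets, the second of PHF10, the third of DPF3 and the second of SMARCA2 passed by themselves. The second of DPF3, the third of SMARCA2 and those of SS18 did not. The count of the 10 members past the test stood between 3 and 5. With the segmented duplex that count was 1 with arrays centred on their medians (PHF10) and 3 without the dimmest 40% of genes, with the trended and robust prior or with 16 intensity units added (PHF10, SMARCA4 and SMARCA2 each time). Between the duplexes it was 3, 4 and 1 under these last settings in that order, with DPF3 in each. Over all genes, the intact count was 7809 with the trended and robust prior and 8970 when every probe set was tested by itself, against 4937. The segmented count was 4781, 5415 and 4279 under the same settings in that order and 2434 over single probe sets, against 1186, and the count between the duplexes was 1850, 2412 and 1138, against 0. The test over single probe sets covers 35184 features and the filtered one fewer genes; the cause of the other differences was not tested. Without 1 mock array no residual degree of freedom was left and the changes are values with no test. PHF10, DPF3, SS18 and SMARCA2 kept their signs with the intact duplex under every alternative, these included. The filter, the prior and the test over single probe sets reuse the change of the brightest probe set. For these genes the intact array lay outside both mock arrays, so neither the pseudocount nor leaving out 1 mock array could turn the sign. Only the other scalings and the mean of all probe sets could. For SS18, 3 of 4 probe sets had the opposite sign. DPF1 was among the dimmest 40% and has no value with that filter. ACTL6A ranged from -0.11 to 0.01 with the intact duplex and passed in none. No paired analysis was possible because each duplex has 1 array.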
